A study of Homo sapiens with 8 samples.

Results

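Nucleotide, thymidylate and folate metabolism was followed through 42 genes in 5-FU-sensitive and 5-FU-resistant colon cancer cells. The 42 members were taken as listed symbols for enzymes and carriers of these pathways and matched to the Ensembl identifiers of the count tables, which hold 64253 genes. That matching used no measured value, but the members were chosen with earlier results of these data known. The RNA-seq counts came from 8 libraries in 4 groups of 2. The groups HCT-8 and HCT-8/FU are the 5-FU-sensitive human colon cancer line and its 5-FU-resistant counterpart, both in unconditioned medium. The groups CM of HCT-8 and CM of HCT-8/FU are both HCT-8 cells, grown in conditioned medium (CM) that HCT-8 or HCT-8/FU cells, respectively, had conditioned for 48 h, called below sensitive-line CM and resistant-line CM. HCT-8/FU is a single purchased line. The sources used here do not give whether its cells met 5-FU shortly before harvest, how long HCT-8 cells stayed in CM, or whether replicates were separate cultures, so that p-values measure the spread between these libraries, which may be technical. The labels name Ham's F12, a medium with hypoxanthine and thymidine, whereas the study's methods name RPMI, a medium without them.

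Cells build pyrimidine and purine nucleotides de novo from amino acids, carbon dioxide and the activated ribose PRPP, or salvage free bases and nucleosides. Folate carries the carbon units that close the purine ring and that turn dUMP into dTMP, the step catalysed by thymidylate synthase (TYMS). 5-FU is a uracil analogue that enters by the salvage enzymes, is broken down by dihydropyrimidine dehydrogenase (DPYD), and in the form of FdUMP blocks TYMS. Many enzymes of deoxynucleotide supply are known to be transcribed mainly around S phase.

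Counts on genes ranged from 5804124 to 34881349 per library. Between 3.58% and 4.43% of the records were not aligned in 5 libraries, against 25.1% in HCT-8 replicate 1, 20.0% in HCT-8/FU replicate 2 and 29.6% in sensitive-line CM replicate 1, which also held the lowest counts. The deviation of a gene from its mean followed GC content differently by group. Spearman coefficients across genes were -0.48 and -0.45 in the HCT-8/FU libraries and 0.37 and 0.53 in the sensitive-line CM libraries. For this reason, called members of lowest GC content are given below with values corrected for GC content and length, or with whether their calls held after correction. Of 11 markers of colon epithelium, 10 reached 1 CPM in at least 1 library and CEACAM5 did not. The summed level of 7 fibroblast, 6 immune and 4 endothelial markers stayed between 12.5 and 22.4 CPM, between 1.01 and 2.60 CPM and between 1.27 and 2.45 CPM, respectively.

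Of the 8 genes of thymidylate and deoxynucleotide metabolism 5 were called higher in HCT-8/FU than in HCT-8, and SHMT2, MTHFD2, MTHFD1L and UPP1 were called lower. A gene was called at an edgeR false discovery rate (FDR) of at most 0.05 and a log2 difference of at least 0.58, a 1.5-fold change. Of 41 members that passed the filter on low counts, 10 were called higher and 4 lower in HCT-8/FU against HCT-8, where 13.2% of the 20305 genes tested were called higher and 8.12% lower, 21.3% in all. After GC and length correction 9 members were higher and 4 lower, where 1803 and 1281 of 19857 genes were called. That correction removed the calls of CMPK1, PPAT, GGH and RRM1 and added DTYMK, PFAS and SHMT1. The FDR alone passed for 25 members and 36.7% of all genes. The median log2 difference was 0.19 over the members and 0.01 over all genes tested. Since these are bulk samples, more cells expressing a gene and more RNA per cell cannot be told apart. HCT-8 cells in sensitive-line CM also differed from HCT-8 cells in unconditioned medium, with 8 members called higher and 2 lower against 3.86% and 4.29% of all genes (8.15% in all). In resistant-line CM against HCT-8, 4 members were called higher and 3 lower, against 7.16% and 3.28% of all genes (10.4% in all). These 3 comparisons share the HCT-8 libraries. The split over all genes moved with the scaling. With sensitive-line CM replicate 2 as the TMM reference, 3166 genes were higher in HCT-8/FU and 1192 lower, in place of 2677 and 1648, and 1856 were higher in resistant-line CM and 430 lower, in place of 1454 and 666. With DESeq2 size factors, 617 were higher in sensitive-line CM and 1088 lower, in place of 783 and 872. By contrast, resistant-line CM against sensitive-line CM called 1 member higher and 0 lower (also 0 lower with DESeq2), against 7.97% and 1.28% of all genes (9.25% in all). There, 12 members passed the edgeR FDR alone, 10 of them lower, where 19.7% of all genes passed in either direction.

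**Figure D1:**
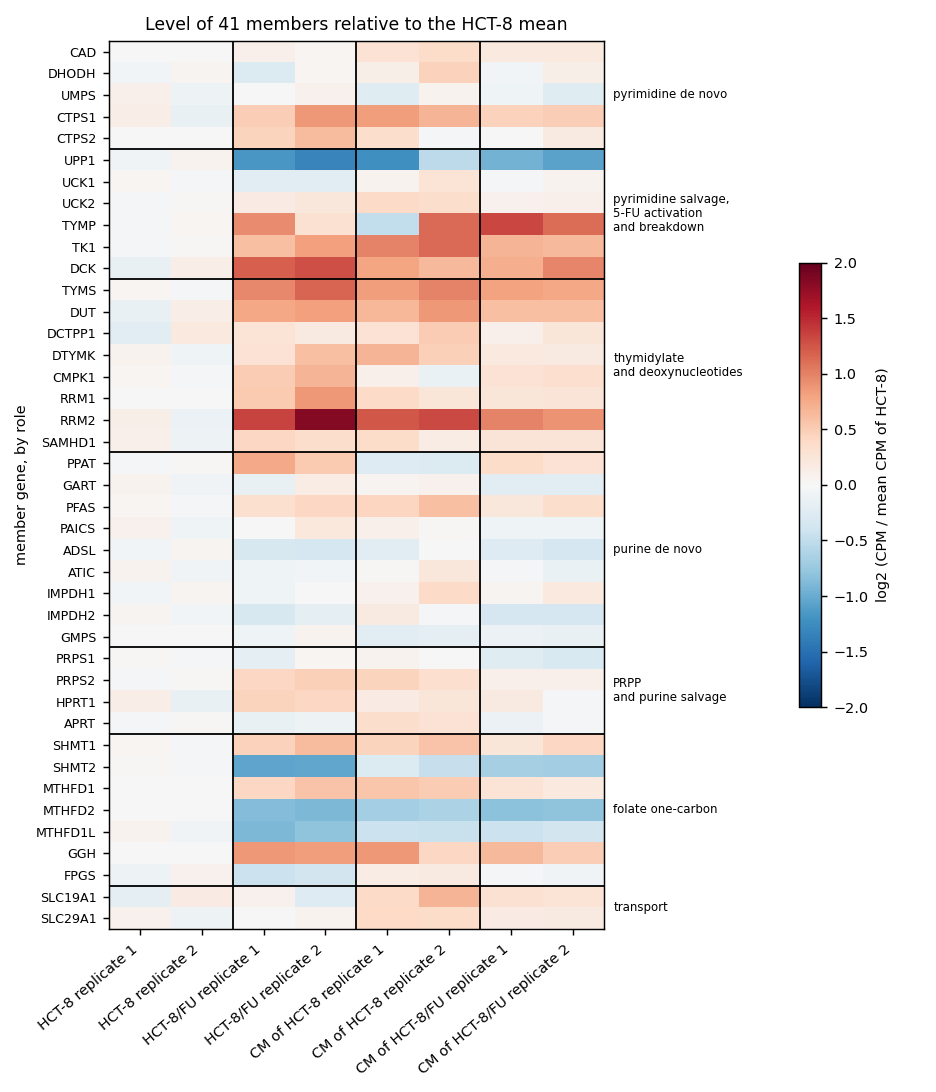
The level of the 41 members that passed the filter on low counts is drawn by library (columns) and role (rows) as log2 of CPM over the mean CPM of HCT-8, with red for higher and blue for lower. Both HCT-8 libraries lie below the other 6 for 16 members and above them for 4, among them SHMT2 and MTHFD2.

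Read across all libraries, both HCT-8 libraries lay below the other 6 for 16 of the 41 members, where this held for 10.5% of all genes tested, and above them for 4 members (UPP1, SHMT2, MTHFD2 and MTHFD1L), where it held for 12.6%.

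Of the 8 genes of thymidylate and deoxynucleotide metabolism, 5 rose in HCT-8/FU against HCT-8 and 0 fell, with a median log2 difference of 0.64. After GC and length correction 4 were called higher and 0 lower, with a median of 0.56. TYMS (chr18:657653-673578, plus strand, GRCh38), the target of 5-FU, was at 45.8 and 43.7 CPM in HCT-8, 87.2 and 99.8 CPM in HCT-8/FU, 79.9 and 89.1 CPM in sensitive-line CM and 78.1 and 76.2 CPM in resistant-line CM. HCT-8 thus stood apart from the other 3 groups, whose means lay closer to each other than to it. TYMS was 2.08-fold higher in HCT-8/FU than in HCT-8 (log2 difference 1.06 ± 0.10 SE, edgeR FDR 6.96e-07), and it rose by 0.93 ± 0.09 in sensitive-line CM against HCT-8 and by 0.79 ± 0.09 in resistant-line CM against HCT-8. The difference between the CM groups did not pass the test (-0.14 ± 0.09, edgeR FDR 0.32). Exons of a gene on the opposite strand cover 47.9% of the exonic bases of TYMS. No source used here gives the strand setting of the counting, so how reads over these bases were assigned is not known.

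RRM1 and RRM2 encode the large and the small subunit of ribonucleotide reductase, which makes deoxynucleotides from ribonucleotides. RRM2 (chr2:10120698-10211725, plus strand) was at 62.1 and 52.9 CPM in HCT-8, 147 and 206 CPM in HCT-8/FU, 136 and 143 CPM in sensitive-line CM and 115 and 108 CPM in resistant-line CM. Its log2 difference in HCT-8/FU against HCT-8 was 1.62 ± 0.13 (SE), or 3.07-fold, the largest rise among the members in that fit (edgeR FDR 2.33e-07). RRM2 also rose in both CM groups against HCT-8, by 1.299 ± 0.13 in sensitive-line CM and by 0.97 ± 0.13 in resistant-line CM. RRM1 followed over a smaller range, with 64.2 and 63.3 CPM in HCT-8, 91.9 and 116 CPM in HCT-8/FU, 82.9 and 75.5 CPM in sensitive-line CM and 75.5 and 76.3 CPM in resistant-line CM. RRM1 was called in HCT-8/FU against HCT-8 alone (0.69 ± 0.10), and its log2 difference was 0.53 after GC and length correction and 0.52 without HCT-8/FU replicate 2, below the fold threshold in both. Per kilobase of exon, RRM2 stood to RRM1 as 0.42 in HCT-8 but as 0.78 in HCT-8/FU, as 0.82 in sensitive-line CM and as 0.68 in resistant-line CM.

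DUT, the dUTPase that keeps uracil and its fluorinated analogue out of DNA, was at 29.2 and 35.6 CPM in HCT-8 and between 49.3 and 59.3 CPM in the other 6 libraries. It rose by 0.76 ± 0.11 in HCT-8/FU against HCT-8 (edgeR FDR 5.49e-05), with 55.5 and 57.0 CPM in HCT-8/FU, and by 0.76 ± 0.11 in sensitive-line CM, with 51.6 and 59.3 CPM. In resistant-line CM, with 49.3 and 49.4 CPM, its log2 difference from HCT-8 was 0.577 with an edgeR FDR of 0.000976, just under the fold threshold. The annotation names 8 pseudogenes of DUT, which can share its reads. DTYMK, the thymidylate kinase, was at 28.3 and 25.4 CPM in HCT-8, 32.9 and 40.6 CPM in HCT-8/FU, 43.0 and 37.4 CPM in sensitive-line CM and 30.6 and 30.5 CPM in resistant-line CM. In HCT-8/FU against HCT-8 it was at 0.44 and not called, but it was called after GC and length correction (0.67). DTYMK was called higher in sensitive-line CM against HCT-8, at 0.59 ± 0.12, a value just inside the threshold. The call was lost without HCT-8 replicate 2 (0.43), without sensitive-line CM replicate 1 (0.50) and after GC and length correction (0.46). It was also lost with DESeq2 size factors (0.54), in DESeq2 (0.54), with no filter (0.56), with a term for poorly aligned libraries (0.57), without those libraries (0.56) and with the other TMM reference (0.58 after rounding).

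CMPK1, the UMP/CMP kinase, was at 62.8 and 59.4 CPM in HCT-8, 86.7 and 97.9 CPM in HCT-8/FU, 65.3 and 55.9 CPM in sensitive-line CM and 74.6 and 77.4 CPM in resistant-line CM. Unlike TYMS and RRM2, its level in sensitive-line CM overlapped that in HCT-8. The rise of CMPK1 in HCT-8/FU, 0.59 ± 0.10, was 0.04 after GC and length correction, with an exonic GC content of 36.8%, and its call was also lost without HCT-8 replicate 2 (0.52), HCT-8/FU replicate 2 (0.51) or either sensitive-line CM library (0.58 each, just under the threshold). DCTPP1, a dCTP pyrophosphatase, and SAMHD1, a hydrolase of deoxynucleotides, were called in none of the 4 comparisons, with ranges over the libraries of 20.9 to 35.03 CPM and 38.7 to 55.4 CPM.

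**Figure D2:**
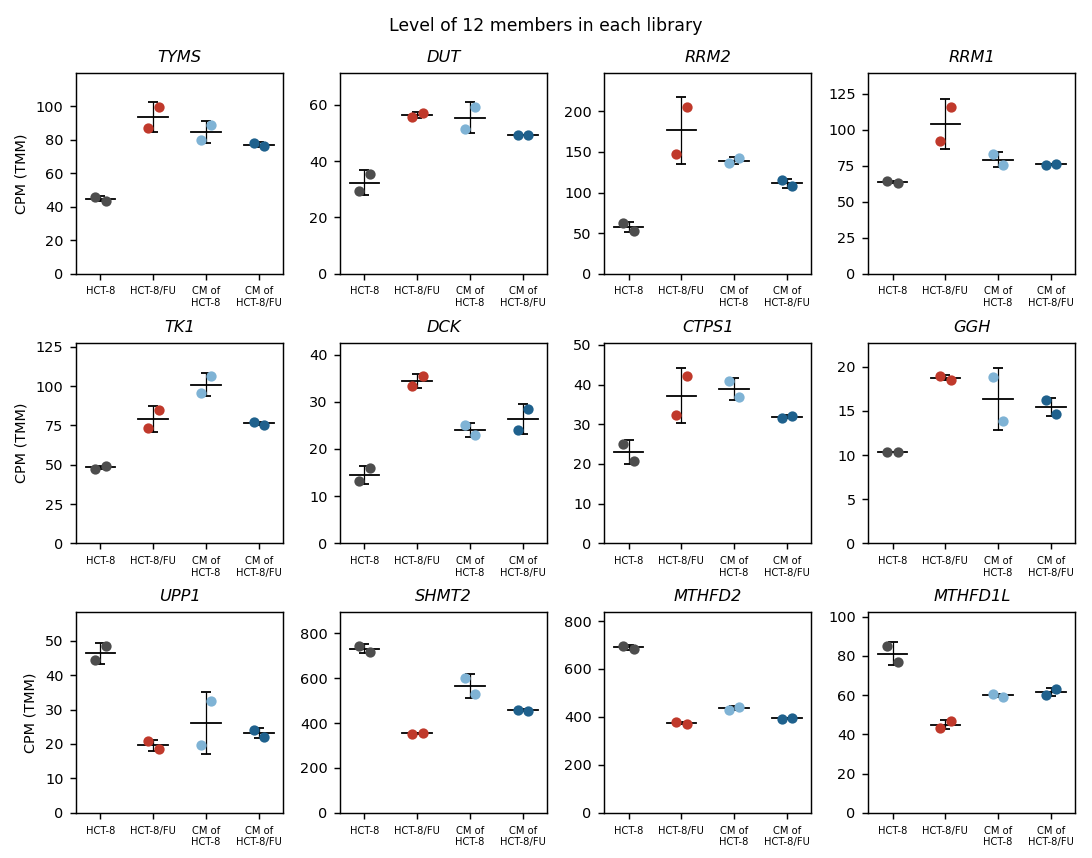
CPM of 12 members in each library (points), with the group mean (line) and SD of 2 libraries (bars), drawn from 0 on a separate axis for each gene. The HCT-8 points are the lowest for TYMS, DUT, RRM2, RRM1, TK1, DCK, CTPS1 and GGH and the highest for UPP1, SHMT2, MTHFD2 and MTHFD1L.

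Among the 7 genes that salvage pyrimidines and activate or break down 5-FU, TK1 and DCK rose and UPP1 fell in HCT-8/FU against HCT-8. UPP1, the uridine phosphorylase that can join 5-FU to ribose, was at 44.2 and 48.5 CPM in HCT-8, 20.7 and 18.6 CPM in HCT-8/FU, 19.8 and 32.4 CPM in sensitive-line CM and 24.2 and 22.1 CPM in resistant-line CM. All 6 libraries other than HCT-8 lay below both HCT-8 libraries, and the sensitive-line CM replicates stood far apart. UPP1 fell by 1.22 on the log2 scale in HCT-8/FU (SE 0.17, edgeR FDR 4.06e-05), to 0.43 of the HCT-8 level, by 1.01 in resistant-line CM and by 0.78 in sensitive-line CM, the last of which was -0.53 without sensitive-line CM replicate 1.

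TK1, the thymidine kinase of the cytosol, was at 47.5 and 48.9 CPM in HCT-8, 73.4 and 85.1 CPM in HCT-8/FU, 95.6 and 106 CPM in sensitive-line CM and 77.1 and 75.3 CPM in resistant-line CM. It was highest in sensitive-line CM, with a rise of 1.07 ± 0.09 over HCT-8, and rose by 0.70 ± 0.10 in HCT-8/FU and 0.66 ± 0.09 in resistant-line CM. Between the CM groups TK1 was lower in resistant-line CM at -0.41 ± 0.09 (edgeR FDR 0.00398), short of the fold threshold. After GC and length correction that value was -0.21 and did not pass (edgeR FDR 0.21). DCK, the deoxycytidine kinase, was at 13.2 and 15.9 CPM in HCT-8, 33.4 and 35.4 CPM in HCT-8/FU, 25.1 and 22.9 CPM in sensitive-line CM and 24.02 and 28.5 CPM in resistant-line CM. Its rise was 1.195 ± 0.13 in HCT-8/FU (edgeR FDR 5.42e-06), 0.67 ± 0.14 in sensitive-line CM and 0.82 ± 0.13 in resistant-line CM. DCK has an exonic GC content of 39.3% and kept its call in each of these comparisons after GC and length correction. Leaving out HCT-8 replicate 1 took the value in sensitive-line CM to 0.579, just under the threshold.

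The remaining salvage genes were called in none of the 4 comparisons. UCK2, a uridine-cytidine kinase that also phosphorylates fluorouridine, was at 49.4 and 51.5 CPM in HCT-8, 56.5 and 59.3 CPM in HCT-8/FU, 65.5 and 64.4 CPM in sensitive-line CM and 53.6 and 54.3 CPM in resistant-line CM. Its paralogue UCK1 stayed between 13.2 and 18.5 CPM, and the ratio of UCK2 to UCK1 per kilobase of exon was 1.27, 1.69, 1.45 and 1.34 in the same order of groups. TYMP, the thymidine phosphorylase, had 6 and 28 counts in HCT-8, 47 and 6 counts in HCT-8/FU, 5 and 47 in sensitive-line CM and 64 and 54 in resistant-line CM, or 0.58 to 2.05 CPM. With so few counts its log2 difference in HCT-8/FU against HCT-8 was 0.76 ± 0.52 (edgeR FDR 0.29), and no change was detectable at this depth. In resistant-line CM against HCT-8 the value was 1.21 ± 0.48 (edgeR FDR 0.082), and it passed without sensitive-line CM replicate 1 (edgeR FDR 0.03) or replicate 2 (0.034), which leaves the TYMP values compared as they were. DPYD, which starts the breakdown of 5-FU, had 0 to 2 counts per library and 8 in all, and did not pass the filter on low counts. In the 2 libraries without a count, the limit that a count of 0 allows, 3 counts, came to 0.39 CPM in HCT-8 replicate 1 and 0.097 CPM in resistant-line CM replicate 2, for counting error only.

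Of the 5 genes of pyrimidine synthesis de novo, CTPS1 alone was called in any of the 4 comparisons. CTPS1, the CTP synthase known from proliferating cells, was at 25.1 and 20.8 CPM in HCT-8, 32.3 and 42.1 CPM in HCT-8/FU, 40.9 and 37.0 CPM in sensitive-line CM and 31.7 and 32.2 CPM in resistant-line CM. It rose by 0.69 ± 0.14 in HCT-8/FU (edgeR FDR 0.00099) and by 0.78 ± 0.13 in sensitive-line CM. Both calls were lost without HCT-8 replicate 2, at 0.50 and 0.55, and the first also without HCT-8/FU replicate 2, at 0.52. Its paralogue CTPS2 stayed between 14.0 and 22.1 CPM and passed the edgeR FDR but not the fold threshold in HCT-8/FU (0.52 ± 0.16).

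UMPS, which makes UMP from orotate and joins 5-FU directly to PRPP, was at 31.5 and 27.3 CPM in HCT-8, 29.4 and 31.3 CPM in HCT-8/FU, 24.7 and 31.0 CPM in sensitive-line CM and 27.7 and 24.9 CPM in resistant-line CM. The groups overlapped in all 4 comparisons, and the log2 difference in HCT-8/FU against HCT-8 was 0.06 ± 0.13. CAD, which carries out the opening steps of the pathway, ranged from 186 to 243 CPM and DHODH, its mitochondrial dehydrogenase, from 9.14 to 15.3 CPM. CAD passed the edgeR FDR without the fold threshold in sensitive-line CM against HCT-8 (0.33 ± 0.07, FDR 0.00378).

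All 7 folate genes passed the edgeR FDR in HCT-8/FU against HCT-8, 3 of them higher and 4 lower. SHMT2, MTHFD2 and MTHFD1L, the mitochondrial enzymes that draw carbon units from serine and turn them into formate, all fell. SHMT2 was at 744 and 717 CPM in HCT-8, 353 and 357 CPM in HCT-8/FU, 602 and 528 CPM in sensitive-line CM and 459.5 and 454 CPM in resistant-line CM. It fell by 1.04 on the log2 scale in HCT-8/FU (SE 0.07, edgeR FDR 8.57e-08), to 0.49 of the HCT-8 level, and by 0.68 in resistant-line CM, where it was -0.56 and no longer called after GC and length correction. With sensitive-line CM the value was -0.37 ± 0.07, which passed the edgeR FDR and not the fold threshold.

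MTHFD2 was at 697 and 683 CPM in HCT-8, 378 and 372 CPM in HCT-8/FU, 430.1 and 443 CPM in sensitive-line CM and 391 and 396 CPM in resistant-line CM. Both HCT-8 libraries stood far above the other 6, which lay between 372 and 443 CPM. MTHFD2 fell by 0.88 in HCT-8/FU (SE 0.06, edgeR FDR 1.18e-07), by 0.81 in resistant-line CM and by 0.66 in sensitive-line CM, the last of which was -0.50 after GC and length correction. MTHFD1L was at 85.2 and 77.0 CPM in HCT-8, 43.4 and 46.6 CPM in HCT-8/FU, 60.5 and 59.3 CPM in sensitive-line CM and 60.1 and 62.9 CPM in resistant-line CM. It fell by 0.85 in HCT-8/FU (SE 0.09, edgeR FDR 3.71e-06), and was at -0.43 ± 0.09 and -0.39 ± 0.09 in sensitive-line CM and resistant-line CM, past the edgeR FDR but not the fold threshold.

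SHMT1 and MTHFD1 are the corresponding enzymes of the cytosol. In HCT-8/FU against HCT-8 the log2 difference was 0.54 ± 0.11 for SHMT1 and 0.50 ± 0.08 for MTHFD1, both past the edgeR FDR (0.001 and 0.000109) and short of the fold threshold. With sensitive-line CM the values were 0.53 ± 0.11 and 0.53 ± 0.08. After GC and length correction SHMT1 was called in HCT-8/FU (0.70) and MTHFD1 in sensitive-line CM (0.67). Per kilobase of exon, SHMT2 stood 33.6 and 34.5 times above SHMT1 in HCT-8, 11.98 and 10.7 times in HCT-8/FU, 20.6 and 16.5 times in sensitive-line CM and 18.1 and 15.9 times in resistant-line CM. The ratio of MTHFD1L to MTHFD1 was 1.92 and 1.75 in HCT-8 and 0.73 and 0.71 in HCT-8/FU. In sensitive-line CM it was 0.93 and 0.94, and in resistant-line CM 1.12 and 1.24. Neither ratio in HCT-8/FU overlapped that in HCT-8, but an exact two-sided permutation test of 2 against 2 libraries cannot go below 0.33, the value it gave for both. These ratios take the union of all annotated exons as gene length, 17.4 kb for MTHFD1 and 4.89 kb for MTHFD1L. Which gene of a pair stands higher depends on these lengths. In CPM, MTHFD1 lay above MTHFD1L already in HCT-8, at 157 and 156 CPM against 85.2 and 77.0 CPM.

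**Figure D3:**
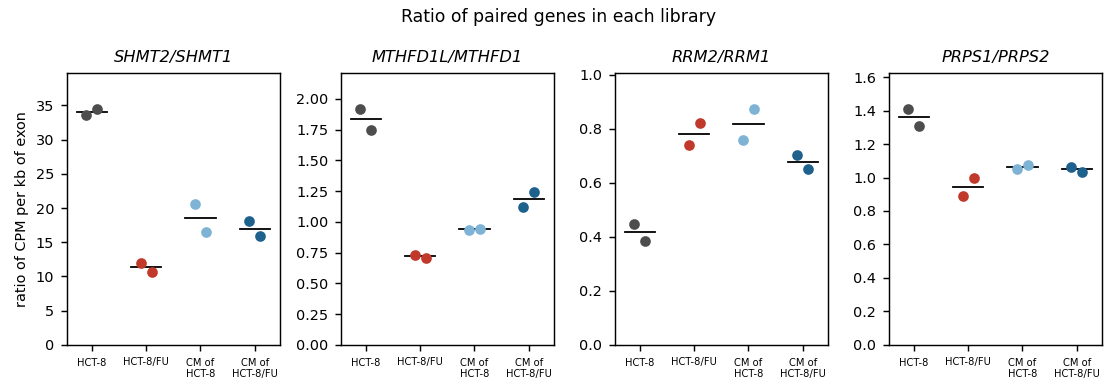
Ratio of CPM per kilobase of exon for 4 pairs of genes in each library (points), with the group mean (line), drawn from 0. SHMT2/SHMT1, MTHFD1L/MTHFD1 and PRPS1/PRPS2 are highest in HCT-8, at means of 34.1, 1.84 and 1.36, and RRM2/RRM1 is lowest there, at 0.42.

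GGH and FPGS remove and add the glutamate tail that keeps folates and antifolates in the cell. GGH was at 10.4 and 10.4 CPM in HCT-8, 18.9 and 18.6 CPM in HCT-8/FU, 18.9 and 13.9 CPM in sensitive-line CM and 16.2 and 14.7 CPM in resistant-line CM. It rose by 0.86 ± 0.17 in HCT-8/FU (edgeR FDR 0.000767) and by 0.62 ± 0.17 in sensitive-line CM. The first value was 0.35 after GC and length correction, with an exonic GC content of 39.2%, and the second lost its call without sensitive-line CM replicate 1 (0.42) and without either HCT-8 library (0.62 and 0.55, at edgeR FDR 0.061 and 0.18). FPGS ranged from 48.2 to 74.0 CPM and was lower in HCT-8/FU at -0.42 ± 0.09 (edgeR FDR 0.00198), short of the fold threshold, and -0.09 after GC and length correction.

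Of the 9 genes of purine synthesis PPAT alone was called, the amidotransferase of the committed step from PRPP. PPAT was at 46.5 and 47.7 CPM in HCT-8, 79.8 and 67.9 CPM in HCT-8/FU, 39.4 and 38.8 CPM in sensitive-line CM and 60.6 and 57.7 CPM in resistant-line CM. Its order thus differed from that of TYMS, with sensitive-line CM lowest. PPAT rose by 0.66 ± 0.10 in HCT-8/FU against HCT-8 (edgeR FDR 6.46e-05) and by 0.60 ± 0.10 in resistant-line CM against sensitive-line CM (edgeR FDR 0.000352), the one call among the members between the CM groups. After GC and length correction the values were 0.12 and 0.11, with an exonic GC content of 37.2%. The first was 0.51 without HCT-8/FU replicate 1 and the second 0.57 without resistant-line CM replicate 1, both under the fold threshold.

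The other 8 purine genes, GART, PFAS, PAICS, ADSL, ATIC, IMPDH1, IMPDH2 and GMPS, lay between -0.33 and 0.36 in HCT-8/FU against HCT-8 and between -0.20 and 0.54 in sensitive-line CM against HCT-8. ADSL, PFAS and IMPDH2 passed the edgeR FDR without the fold threshold in HCT-8/FU, at -0.33, 0.36 and -0.26. After GC and length correction PFAS was at 0.65 there and was called. IMPDH2, which with its paralogue IMPDH1 opens the branch to GMP, was at 302 and 282 CPM in HCT-8 and 233 and 256 CPM in HCT-8/FU. Overlapping genes cover 32.8% of the exonic bases of IMPDH2, and the annotation names 10 pseudogenes of IMPDH1. The ratio of IMPDH2 to IMPDH1 per kilobase of exon was highest in HCT-8, at 2.38, with 2.05 in HCT-8/FU, 2.16 in sensitive-line CM and 1.73 in resistant-line CM.

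None of PRPS1, PRPS2, HPRT1 and APRT, which make PRPP or use it to salvage purine bases, was called in the 4 comparisons. PRPS2 and HPRT1 passed the edgeR FDR without the fold threshold in HCT-8/FU against HCT-8, at 0.43 ± 0.10 and 0.47 ± 0.12. PRPS1, the other PRPP synthetase, was at -0.09 ± 0.10, and the ratio of PRPS1 to PRPS2 per kilobase of exon was 1.36 in HCT-8 and 0.95 in HCT-8/FU. APRT passed the edgeR FDR between the CM groups, where it was lower in resistant-line CM at -0.40 ± 0.08 (FDR 0.00276). Neither carrier was called. SLC29A1, the equilibrative transporter that takes up nucleosides, was at 41.6 and 36.6 CPM in HCT-8, 39.2 and 41.1 CPM in HCT-8/FU, 51.4 and 50.3 CPM in sensitive-line CM and 43.8 and 44.2 CPM in resistant-line CM. SLC19A1, the reduced folate carrier, ranged from 36.3 to 69.6 CPM. In sensitive-line CM against HCT-8 both passed the edgeR FDR but not the fold threshold, at 0.40 ± 0.10 and 0.52 ± 0.13.

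The bases before the members' start sites were read from RefSeq (GRCh38.p14), where 38 of the 42 members had a promoter window of 250 bases before to 50 after the start. The 150 bases before the start are shown for TYMS (chr18:657503-657652, plus strand), DUT (chr15:48332047-48332196, plus strand), RRM2 (chr2:10122589-10122738, plus strand) and TK1 (chr17:78187053-78187202, minus strand), which rose in HCT-8/FU, and for MTHFD1L (chr6:150866297-150866446, plus strand) and MTHFD2 (chr2:74198465-74198614, plus strand), which fell. Capitals mark the E2F letters TTTCCCGC, TTTGGCGC, TTTCGCGC and TTTGCCGC, the E-box CACGTG, the ATF4 letters TTGCATCA and the box CCAAT, each on either strand. CCAAT does not occur within the other motifs. DUT and MTHFD1L had 4 starts each, and RRM2 and TK1 had 2 each. For these genes the stretch with the most marked motifs was chosen for display, so the places counted in it were selected for.
TYMS: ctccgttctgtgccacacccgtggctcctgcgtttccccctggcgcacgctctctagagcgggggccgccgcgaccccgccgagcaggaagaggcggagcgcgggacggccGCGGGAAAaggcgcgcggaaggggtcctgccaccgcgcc
DUT: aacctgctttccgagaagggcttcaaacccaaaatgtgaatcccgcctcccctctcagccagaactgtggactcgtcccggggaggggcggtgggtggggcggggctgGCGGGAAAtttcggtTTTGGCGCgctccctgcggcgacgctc
RRM2: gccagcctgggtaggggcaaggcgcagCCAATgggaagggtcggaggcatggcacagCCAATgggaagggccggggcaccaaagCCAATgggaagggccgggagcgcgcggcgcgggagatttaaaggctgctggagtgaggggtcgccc
TK1: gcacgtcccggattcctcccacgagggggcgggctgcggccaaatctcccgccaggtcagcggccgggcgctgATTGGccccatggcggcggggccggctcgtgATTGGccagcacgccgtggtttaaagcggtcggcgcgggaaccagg
MTHFD1L: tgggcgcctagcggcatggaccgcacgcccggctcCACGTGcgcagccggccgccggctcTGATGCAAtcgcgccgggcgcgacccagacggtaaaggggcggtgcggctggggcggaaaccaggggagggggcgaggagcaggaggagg
MTHFD2: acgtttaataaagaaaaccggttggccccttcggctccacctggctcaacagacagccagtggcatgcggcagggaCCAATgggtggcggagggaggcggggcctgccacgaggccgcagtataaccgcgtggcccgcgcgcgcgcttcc

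The E2F letters stood once before TYMS, from base 39 to base 32 before the start, and at 2 places before DUT, and were not in the windows of RRM2 and TK1, whose printed stretches held CCAAT at 3 and 2 places. Over the 300-base windows, E2F letters were found for 6 of 38 members (DCK, DUT, GART, PRPS2, SLC19A1 and TYMS), and for 3.99% of all genes with a window. Of the 9 members with a window that were called higher in HCT-8/FU against HCT-8, 3 held them. The E-box was found for 11 of 38 members and 8.77% of all genes, CCAAT for 16 of 38 and 39.7%, and the ATF4 letters for MTHFD1L alone and 1.08%. A match describes letters, not a bound site.

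Whether the members differed alike between the lines and between the media was tested as the difference between HCT-8/FU against HCT-8 and resistant-line CM against sensitive-line CM, which share no library. The difference was called for 18 of 41 members, 14 higher and 4 lower in the line comparison, where 3.55% and 4.14% of all genes were called, 7.69% in all. It was 1.95 ± 0.18 for RRM2 (edgeR FDR 6.67e-06), 1.19 ± 0.13 for TYMS, 1.11 ± 0.13 for TK1 and 1.05 ± 0.18 for DCK. For the mitochondrial folate genes it was -0.89 ± 0.13 for MTHFD1L, -0.74 ± 0.10 for SHMT2 and -0.73 ± 0.09 for MTHFD2. MTHFD1 and SHMT1, called in neither comparison alone, differed between them by 0.79 ± 0.11 and 0.73 ± 0.15. For PPAT, the difference was 0.06 ± 0.14 (edgeR FDR 0.84), with 0.66 and 0.60 in the respective comparisons. Without HCT-8 replicate 2, 7 of the 14 higher calls remained (TK1, DCK, TYMS, DUT, RRM2, PRPS2 and MTHFD1).

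**Figure D4:**
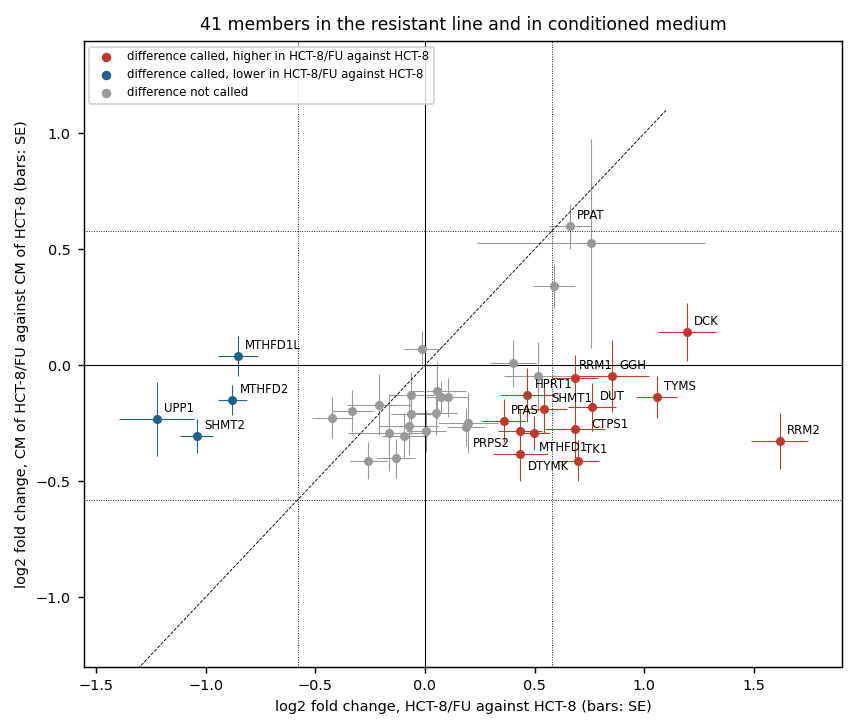
The log2 difference of 41 members in HCT-8/FU against HCT-8 (horizontal) and in resistant-line CM against sensitive-line CM (vertical), with SE bars, fold thresholds (dotted) and the line of equal values (dashed). RRM2 lies farthest right, at 1.62 and -0.33, the 4 members of lower difference lie to the left, and PPAT lies near the dashed line.

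Markers of cycling cells also differed between the groups, and the summed S phase and mitosis markers did not follow the same order of groups. Over all genes tested, 13.2% were called higher and 8.12% lower in HCT-8/FU against HCT-8, and 3.86% and 4.29% in sensitive-line CM against HCT-8. In resistant-line CM the shares were 7.16% and 3.28% against HCT-8 and 7.97% and 1.28% against sensitive-line CM. Of 18 S phase markers, 13 rose and 1 (CDC6) fell in HCT-8/FU against HCT-8, with a median log2 difference of 0.87, and 11 were higher and 0 lower in sensitive-line CM against HCT-8, with a median of 0.72. Resistant-line CM against HCT-8 called 9 higher and 1 lower, and the CM groups differed by 3 higher and 1 lower in resistant-line CM, with 15 of the 18 below 0 and none called after GC and length correction. Their summed level was 955 and 947 CPM in HCT-8, 1387 and 1644 CPM in HCT-8/FU, 1475 and 1498 CPM in sensitive-line CM and 1284 and 1276 CPM in resistant-line CM. Of 15 mitosis markers, 11 were higher in HCT-8/FU, 4 in sensitive-line CM and 10 in resistant-line CM against HCT-8, and 6 in resistant-line CM against sensitive-line CM, while 1 was lower in sensitive-line CM against HCT-8 and 0 in the other comparisons. The median log2 difference of these markers was 1.51 in HCT-8/FU against HCT-8, or 0.89 after GC and length correction. Between the CM groups it was 0.23, or 0.09 after correction, with 6 of the 15 below 0 before correction. Their summed level was 504 and 479.9 CPM in HCT-8, 1539 and 1614 CPM in HCT-8/FU, 705 and 569 CPM in sensitive-line CM and 1095 and 1093 CPM in resistant-line CM. The 8 thymidylate and deoxynucleotide genes summed to 358 and 347 CPM, 587 and 698 CPM, 542 and 541 CPM, and 499 and 496 CPM in the same order. Of the mitosis sum, MKI67, TOP2A and CENPF held means of 99.1, 109 and 53.2 CPM in sensitive-line CM and 237, 270 and 181 CPM in resistant-line CM. The part of cell cycling in the result was not tested.

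**Figure D5:**
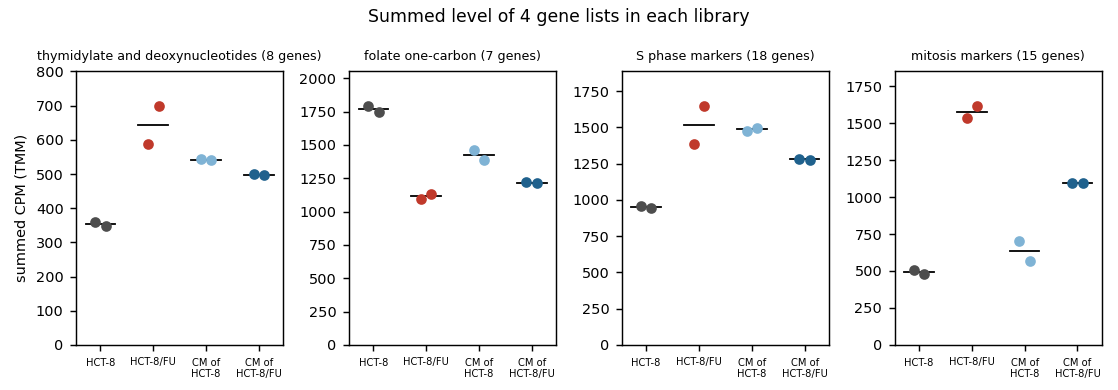
Summed CPM of 4 gene lists in each library (points), with the group mean (line), drawn from 0. The sums of the thymidylate and deoxynucleotide genes and of the S phase markers are lowest in HCT-8. The sum of the mitosis markers is highest in HCT-8/FU (1539 and 1614 CPM). The folate sum is highest in HCT-8 (1788 and 1745 CPM), where SHMT2 gives 744 and 717 CPM and MTHFD2 697 and 683 CPM. By contrast, SHMT1, MTHFD1 and GGH are each lowest in HCT-8.

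Of 65 other genes of nucleotide and folate metabolism, 62 were tested, of which 7 rose and 5 fell in HCT-8/FU against HCT-8, with a median log2 difference of -0.01. That is 19.4% called, near the 21.3% of all genes. The 3 of largest rise, CMPK2, ALDH1L2 and NME2, the last a paralogue of NME1, stood at low levels of at most 3.22 CPM in the HCT-8/FU libraries. ALDH1L2 was not called after GC and length correction. The 3 of largest fall were PRPSAP1, a partner protein of PRPP synthetase (-1.07 ± 0.08), ALDH1L1, the formyltetrahydrofolate dehydrogenase of the cytosol (-1.03 ± 0.12), and XDH, which makes urate (-0.86 ± 0.18).

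Of 11 regulators known to act on these pathways, 10 were tested and MYCN had 0 counts in every library. In HCT-8/FU against HCT-8, 4 were higher and 2 lower, or 6 and 1 after GC and length correction. Over all genes tested, 13.2% were called higher and 8.12% lower without that correction, and the values below are also without it. The 3 of largest rise were E2F8 (1.69 ± 0.15), E2F7 (1.26 ± 0.22) and RB1 (1.25 ± 0.11), which act in the E2F pathway of S phase genes, and ATF4, the amino acid response factor, fell (-0.88 ± 0.08). ATF4 was at 1129.9 and 1104 CPM in HCT-8, 623 and 594 CPM in HCT-8/FU, 1226 and 1006 CPM in sensitive-line CM and 801 and 795 CPM in resistant-line CM. The sensitive-line CM libraries thus lay on either side of HCT-8, at a log2 difference of -0.00 ± 0.08. E2F1 was called higher in sensitive-line CM (1.11 ± 0.10) and in resistant-line CM (0.84 ± 0.10) against HCT-8.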

How the data were processed

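The 8 RNA-seq libraries were sequenced in reads of 150 bases. According to the submitters' processing notes and the study's methods, the authors aligned reads to hg38 with HISAT2, handled alignments with SAMtools 1.18 and made raw counts per Ensembl gene with HTSeq 0.11.2, and the deposited counts were used as they were. No source used here gives the strand setting. The deposited comparison tables, made by the authors with DESeq2 1.30.0, hold their log2 fold changes and p-values and were not used. The 5 lines that name no gene held 59.2% to 70.3% of the records and were left out.

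Counts were scaled by TMM (reference HCT-8 replicate 2), and 20305 of 64253 genes passed filterByExpr. Group means of 4 groups were fitted to all 8 libraries with edgeR 4.0.16 (quasi-likelihood, R 4.3.3), with Benjamini-Hochberg FDR over all genes tested. A gene was called at FDR of at most 0.05 and a log2 difference of at least 0.58, the study's thresholds. CPM are counts scaled to library size by TMM, SE is the standard error of the fitted log2 difference, and annotation is GENCODE 44. GC and length correction fitted a spline of 5 degrees of freedom per library over the 19857 tested genes with annotation. The limit given for a count of 0 covers counting error only, whereas SE also includes the estimated spread between libraries. Precision also depends on the counts of 5804124 to 34881349 per library.

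The members and lists were chosen with earlier results of these data known. Values per library are given for members called in at least 1 of the 4 comparisons and for a fixed set around 5-FU, the others by range, and of other lists at most the 3 called genes of largest change in each direction. Promoters came from RefSeq (GRCh38.p14). IMPDH2, GGH, ADSL and SHMT2 had no entry there. Alternatives were DESeq2 size factors, DESeq2 1.42.0, no filter, a mean normalized count of at least 10, the compared groups only, a replicate block, no fold threshold, GC and length correction, a term marking the 3 libraries where more than 15% of records had not aligned, another TMM reference and leaving out each library. Leaving out those 3 libraries was chosen after seeing the data. Some genes of the other lists are counted but not reported by name here.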

Additional observations from a re-analysis of the deposited data

Results flagged for a closer look

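The difference between HCT-8/FU against HCT-8 and resistant-line CM against sensitive-line CM passed the edgeR test, an interaction contrast in the fit of all genes, for 18 members. It was higher in the line comparison for RRM2 (1.95), TYMS (1.19), TK1 (1.11), DCK (1.05), CTPS1 (0.96), DUT (0.94), GGH (0.90), DTYMK (0.82), MTHFD1 (0.79), RRM1 (0.74), SHMT1 (0.73), PRPS2 (0.72), PFAS (0.60) and HPRT1 (0.60), on the log2 scale. It was lower for UPP1 (-0.99), MTHFD1L (-0.89), SHMT2 (-0.74) and MTHFD2 (-0.73). HPRT1 was not called after GC and length correction (0.50), with DESeq2 size factors (0.56, edgeR FDR 0.052), in DESeq2 (0.55) or with no filter (0.54). PFAS was under the fold threshold with DESeq2 size factors (0.57), in DESeq2 (0.57) and with no filter (0.55). Both also lost the call when single libraries were left out, as did GGH, RRM1, CTPS1, DTYMK, SHMT1 and UPP1. Where its call was lost, GGH was at 0.81 to 0.97. Without HCT-8/FU replicate 2, UPP1 was at -0.94 and RRM1 at 0.57. Groups of 2 libraries are too small for a check of single outlying libraries.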

How the results depend on the processing

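With the FDR alone and no fold threshold, 18 members rose and 7 fell in HCT-8/FU against HCT-8, 2 and 10 in resistant-line CM against sensitive-line CM, 18 and 4 in sensitive-line CM against HCT-8, and 12 and 6 in resistant-line CM against HCT-8, where 36.7%, 19.7%, 19.4% and 24.7% of all genes passed in the same order. The single member higher between the CM groups (PPAT) was 0 under GC and length correction, with or without the replicate block, and with the term for poorly aligned libraries. Members lower in sensitive-line CM against HCT-8 came to 1 under GC and length correction, with or without the replicate block, and to 1 without the 3 poorly aligned libraries. With sensitive-line CM replicate 2 as TMM reference, 7 members were higher in resistant-line CM against HCT-8. Leaving out 1 library at a time gave 7 to 12 higher and 4 to 4 lower in HCT-8/FU against HCT-8, 0 to 1 and 0 to 0 between the CM groups, 6 to 9 and 1 to 2 in sensitive-line CM, 4 to 5 and 3 to 3 in resistant-line CM, and 7 to 14 and 3 to 4 for the difference between comparisons. The count of 7 for the difference was without HCT-8 replicate 2, the 0 between the CM groups without resistant-line CM replicate 1, and the 1 lower member without sensitive-line CM replicate 1. Between the CM groups, GC and length correction changed the split over all genes from 1619 higher and 259 lower to 677 and 287.

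Replicate numbers did not pair the libraries, since correlations of same-numbered deviations ran from -0.12 to 0.13. With the replicate block, 10 members rose and 4 fell in HCT-8/FU against HCT-8, 1 and 0 between the CM groups, 8 and 2 in sensitive-line CM, 5 and 3 in resistant-line CM, and 14 and 4 for the difference.

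Log2 differences were followed under the alternatives for members called in a comparison, and in every comparison for tested members of the fixed set described above. Of these recomputed values, 1369 kept direction and side of the threshold, 77 lost the call and 11 gained it. Another 22 turned sign, each in a comparison where that member was not called. The gained calls in that count were of DUT and TYMP alone, in resistant-line CM against HCT-8. Calls gained by other members, some named with values above, are not in that count. In HCT-8/FU against HCT-8 these included SHMT1 (0.70), DTYMK (0.67) and PFAS (0.65) after GC and length correction. CTPS2 (0.61) and MTHFD1 (0.58) were among them with the other TMM reference. In HCT-8/FU against HCT-8, leaving out 1 library at a time gave UMPS from -0.091 to 0.13 and SLC29A1 from -0.086 to 0.12, both negative without HCT-8 replicate 2. Between the CM groups, UMPS ran from -0.24 to 0.092 and UPP1 from -0.49 to 0.23, both positive without sensitive-line CM replicate 2, and RRM1 from -0.12 to 0.0090, positive without HCT-8 replicate 2 (0.0038) or sensitive-line CM replicate 1. RRM1 was also 0.034 with the compared groups only, 0.023 with the alignment term, 0.032 with the other TMM reference and 0.0078 without the 3 poorly aligned libraries. GC and length correction took TYMS to 0.072 (0.075 with the replicate block) and SLC29A1 to 0.039 (0.037 with the block). For sensitive-line CM against HCT-8, UMPS ran from -0.22 to 0.10 and was 0.19 without the 3 poorly aligned libraries, and TYMP from -0.51, without sensitive-line CM replicate 2, to 1.11. For the difference, UMPS ran from -0.046 to 0.29 and TYMP from -0.96 to 0.66. The cause of these changes was not tested. Depth limits TYMP and DPYD most.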

Other observations

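Between the CM groups, where PPAT alone was called among the members, 2 of the 62 other nucleotide genes tested were higher in resistant-line CM and 0 lower. That is 3.23% called, below the 9.25% of all genes (7.97% higher). RRM2B, an alternative small subunit of ribonucleotide reductase, was at 23.2 and 22.3 CPM in HCT-8, 51.7 and 57.2 CPM in HCT-8/FU, 21.3 and 16.1 CPM in sensitive-line CM and 36.8 and 37.7 CPM in resistant-line CM. SLC25A36, a mitochondrial carrier of pyrimidine nucleotides, differed by 0.89 on the log2 scale, and RRM2B by 1.04, and both calls were lost after GC and length correction. RB1 was higher by 1.24 ± 0.12 in resistant-line CM (edgeR FDR 2.90e-06) and by 0.71 after that correction, still called.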
